A study of Mus musculus with 47 samples.

Results

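The genes described here are the mouse odorant receptor genes numbered Olfr476 to Olfr542, chosen by symbol alone from the deposited table of expression values. The rule found 52 genes among 54532, and 1107 genes in the table carried a symbol made of Olfr and a number. All 52 are annotated as protein coding on chromosome 7. RNA came from mouse olfactory epithelium, where the sensory neurons of smell sit, at 7 ages from the day of birth (P0) to P21. Wild-type mice (WT, strain label C57BL/6J) gave 23 libraries and mice with the strain label OIVT;Kir2.1 (Kir below) gave 24, with 3 or 4 libraries in each of the 14 groups of age and genotype. The labels do not spell out OIVT, nor do they say which promoter drives Kir2.1 or whether the WT mice were littermates. Whether libraries of a group stem from separate animals is not stated either, and the p-values then reflect only library-to-library spread, some of which may be technical. 1 WT P0 library (replicate 3) carried P3 in its stage label and P0 in its title, and was kept in P0 because the series design counts 4 WT replicates at P0 and 3 at P3.

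An odorant receptor is a G-protein-coupled receptor in the cilia of an olfactory sensory neuron. Each mature neuron expresses one allele of one receptor gene, so the level of a receptor in the whole tissue depends on how many neurons have chosen that gene as well as on the RNA in each. Receptor genes lie in clusters that grew by tandem duplication, and neighbors are often near copies. Kir2.1, the product of Kcnj2, is an inward-rectifier potassium channel that lowers electrical activity when it is expressed in neurons. In bulk tissue, fewer cells of a type and less RNA per cell cannot be told apart.

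Gene counts per library ran from 8107547 to 30385151, and counts that fell on the 52 receptors from 635 to 6680. Kcnj2 was at 36.8 to 104 CPM (counts scaled to the library's size) in WT and at 132 to 1648 CPM in Kir, so every Kir library was above every WT library. The lowest Kir libraries, at 132 to 238 CPM, were replicates 1 and 2 at P21, replicates 1 and 4 at P7 and replicate 3 at P3. The largest shares of unmapped reads were those of 2 Kir P10 libraries, 17.7% in replicate 1 and 33.5% in replicate 2. Kir P14 replicate 3 was next, at 16.4%. The sample titles begin with cry3, cry4 or cry6, which the labels do not explain, and this prefix entered the fits of counts as a term. All libraries of P0, P3, P14 and P21 were cry4 and all of P5 and P10 were cry6, while P7 held each prefix in both genotypes. The term was thus estimated from P7 alone. In courses over all ages, prefix and age cannot be told apart. Each comparison between ages below stayed within cry4 or within cry6. All 16 markers of mature sensory neurons had counts in every library. So did all markers of the other cell types listed, blood and fibroblasts among them, except Gad1 of the brain neuron list. Having counts in every library thus cannot tell this tissue from others, and the tissue label was not tested.

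The 52 genes lie in 3 blocks of the chromosome (GENCODE positions, build GRCm38). The first block holds Olfr520 and Olfr521 at chr7:99730273-99769321. The middle block holds 36 members over 929.6 kb at chr7:107964803-108894420. The last block, chr7:140159999-140705606, holds the 14 members from Olfr522 to Olfr541 over 545.6 kb. Within the last block lie 10 other genes named Olfr and 2 other protein-coding genes, 5830411N06Rik and Cd163l1.

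Many members are near copies of a neighbor. Coding sequences could be aligned to another receptor over at least 80% of their length for 50 of the 52 members, and the closest receptor was a member of the same block for 41 of them. Identity to the closest receptor ran from 65.0% to 97.5%, with a median of 91.5%. The closest pairs of members were Olfr486 and Olfr487 (96.2%) and Olfr530 and Olfr533 (95.4%). Olfr530, Olfr533 and Olfr536 form a family in the last block that holds the most abundant members. Over 921 compared bases Olfr536 differed from Olfr533 at 63 positions and from Olfr530 at 58, and Olfr533 differed from Olfr530 at 48. A 120-base stretch near the end of the coding sequence (GENCODE transcripts), the window of that length in which these 3 differ at most positions, is printed to show what lets a read be placed on one of them (GRCm38, chr7:140503538-140503657 on the minus strand for Olfr536, chr7:140467003-140467122 on the plus strand for Olfr533 and chr7:140372689-140372808 on the minus strand for Olfr530). Capitals mark the 19 positions at which the 3 are not all the same.
Olfr536: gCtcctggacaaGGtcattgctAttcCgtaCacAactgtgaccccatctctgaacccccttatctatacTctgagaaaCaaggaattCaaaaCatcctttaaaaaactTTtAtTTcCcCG
Olfr533: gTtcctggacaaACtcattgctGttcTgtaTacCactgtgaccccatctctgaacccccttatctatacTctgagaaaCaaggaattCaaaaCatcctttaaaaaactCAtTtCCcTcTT
Olfr530: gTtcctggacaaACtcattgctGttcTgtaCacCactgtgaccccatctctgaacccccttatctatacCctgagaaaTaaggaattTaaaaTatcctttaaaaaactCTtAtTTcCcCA
Olfr522 and Olfr523, neighbors whose values are described further on, are not copies: their coding sequences were 57.5% identical over 927 compared bases.

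The stretch before the start of Olfr536, the most abundant member, is printed with matches to a motif in capitals. These 172 bases (RefSeq table of promoters, GRCm38.p6, chr7:140507397-140507568, minus strand) lie upstream of both the RefSeq and the GENCODE start and in no annotated exon of the gene. The motif is the core of the sites of Ebf proteins, CCCNNGGG, which reads the same on both strands, and it occurs at 2 places.
Olfr536 upstream: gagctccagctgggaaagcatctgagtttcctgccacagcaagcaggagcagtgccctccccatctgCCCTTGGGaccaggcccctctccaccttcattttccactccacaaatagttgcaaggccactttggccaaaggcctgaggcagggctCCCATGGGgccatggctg
Such a match was found in the 250 bases before the start of 2 of 48 members with a RefSeq window (4.2%), Olfr536 and Olfr523, against 2.7% of 892 windows of other Olfr genes and 11.7% of all 27025 windows. For Olfr523 these bases lie wholly in annotated exons of the gene, with the RefSeq start 2887 bases past the GENCODE start. The homeodomain core, TAATTA or TAATGA on either strand, was found in 15 of the 48 windows (31.2%), in 38.2% of other Olfr windows and in 12.7% of all windows. The RefSeq start was within 100 bases of the GENCODE start for only 13 of the 48, so many of the windows do not lie directly before the annotated transcript. A match is a description of the sequence and not a bound site.

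Levels differed widely among the members. The 14 members of the last block held 74.5% of all 142230 counts on the 52 genes, and Olfr536 alone held 34.5%. On the length-corrected TPM scale, Olfr536 had the highest mean level over all libraries of the 1407 genes named Olfr, at 39.0 TPM, with single libraries from 9.93 to 113.47. Olfr533 followed with 14 TPM and was the eighth of all. Next came Olfr541 with 5.56, Olfr531 with 4.87, Olfr523 with 4.54 and Olfr539 with 3.77 TPM. The median member was at 1.33 TPM, close to the 1.55 TPM of the median of the 1055 other numbered receptors. In the middle block the highest was Olfr487, at 3.07 TPM, and Olfr504 had no count in any library.

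**Figure D1:**
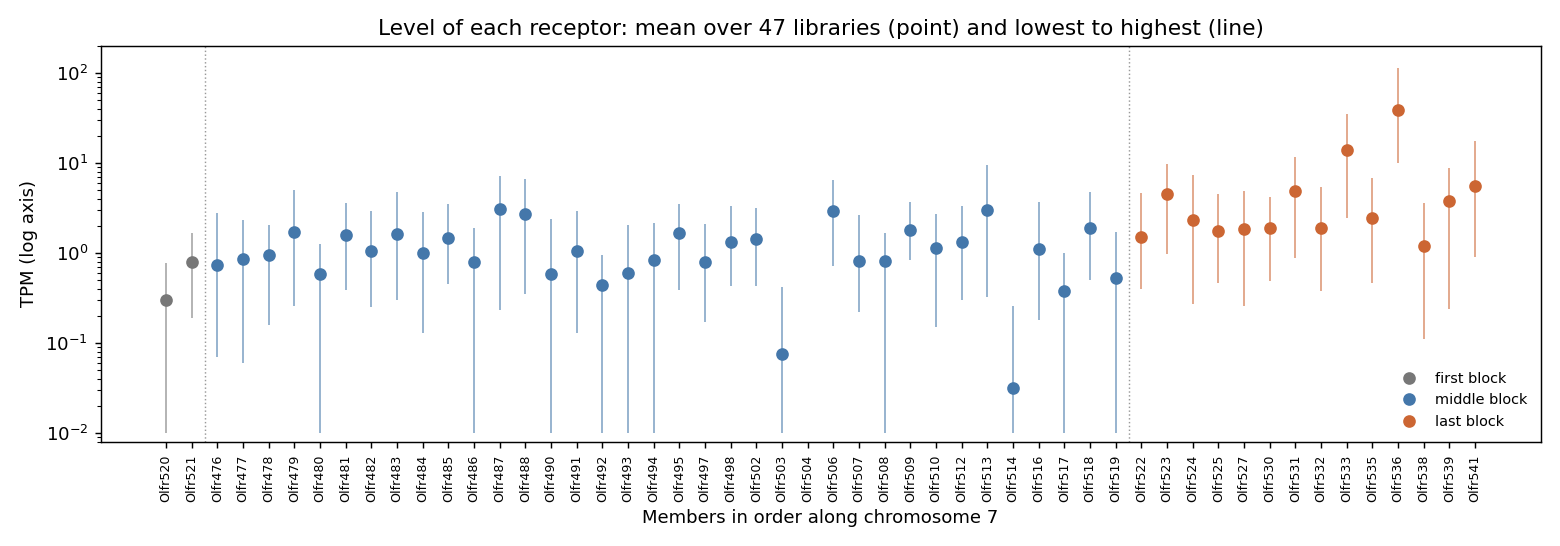
Mean TPM over the 47 libraries (points, log axis) and the lowest to highest library (lines, drawn down to 0.01 where a library was at 0) for each member in chromosome order; Olfr504, with no count, has no point. Olfr536 and Olfr533 of the last block stand above the rest, at 39.0 and 14 TPM.

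Of the 52 members, 42 passed the filter on low counts and were tested. The 10 others had 0 to 336 counts over all libraries together and are Olfr486, Olfr492, Olfr493, Olfr503, Olfr504, Olfr507, Olfr514, Olfr517, Olfr519 and Olfr520. Olfr503 and Olfr504 were most like Olfr658 (97.1% identity) and Olfr657 (95.5%), receptors outside the members. Reads that map to several places were left out of the counts, and the counts and CPM of such near copies rest on their unique reads. This need not hold for the TPM values, which came from another tool (RSEM).

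The first question was how the receptors changed as the tissue matured. Every one of the 14 tested members of the last block rose between P0 and P21 in WT, with a median change of 2.0 on the log2 scale. In the middle block 8 of 27 rose and 1 fell, with a median of 0.35. Over all 42 tested members, 22 rose and 1 fell in edgeR's quasi-likelihood test (adjusted p under 0.05), and the median change was 0.91. Among all 19927 genes tested 24% rose and 26.8% fell, and of the 1022 other receptors tested 624 rose and 6 fell, with a median change of 1.13. The median of the last block was above that of the other receptors and the median of the middle block below it. No test of the difference between the blocks was made.

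Olfr536 was at 20.96, 23.95, 18.17 and 30.42 CPM in the 4 WT P0 libraries and at 173.2, 147.5 and 137.6 CPM in the 3 WT P21 libraries. The groups did not overlap, and the P21 libraries were all above 4 times the highest P0 library. The log2 fold change was 2.71 ± 0.16 (SE; edgeR, adjusted p = 5.73e-15). Olfr533, its near copy, went from 4.32, 8.54, 6.265 and 6.17 CPM at P0 to 33.15, 36.3 and 38.1 CPM at P21, again with no overlap, a log2 fold change of 2.50 ± 0.26 (adjusted p = 1.23e-09). Olfr530, the third of this family and the least abundant, rose by 1.28 ± 0.41 (adjusted p = 0.00923).

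Other large rises in the last block were those of Olfr535 (2.84 ± 0.31), Olfr524 (2.63 ± 0.28), Olfr532 (2.50 ± 0.29), Olfr541 (2.42 ± 0.36), Olfr539 (2.01 ± 0.25), Olfr538 (1.99 ± 0.41) and Olfr531 (1.92 ± 0.27), all log2 fold changes with SE. Olfr539 overlaps Olfr540-ps1 on the opposite strand and the strand setting of the counts is not given. How reads in the shared stretch were counted is thus not known, and the effect on the count of Olfr539 was not examined. Olfr538 is 97.5% identical to Olfr537-ps1. At the other end of the block, Olfr522 rose by 1.26 ± 0.24 and Olfr523 by 0.73 ± 0.24 (adjusted p = 0.0104, and 0.0541 with a replicate block). In the middle block the largest rise was that of Olfr477, from 0.163 to 0.434 CPM at P0 to 1.75 to 2.51 CPM at P21, a log2 fold change of 2.85 ± 0.55.

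**Figure D2:**
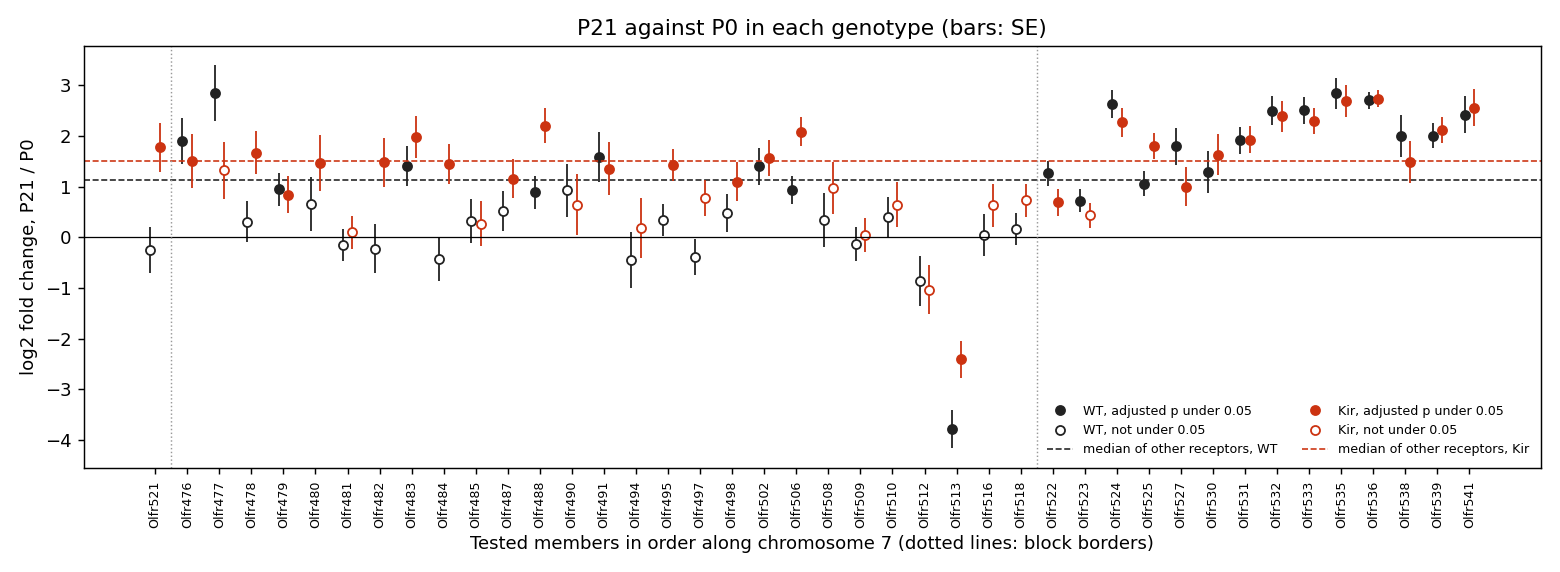
log2 fold change of P21 against P0 (points, with SE) for the 42 tested members in chromosome order, in WT (black) and Kir (red); filled points had an adjusted p under 0.05 and dashed lines mark the median of other receptors, at 1.13 in WT and 1.5 in Kir. The last block lies at or above 0.43 in both genotypes, and Olfr513 lies below all others at -3.79 in WT and -2.41 in Kir.

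Olfr513 was the member that fell. It was at 8.075, 7.485, 8.145 and 6.08 CPM in WT at P0, at 9.21, 8.645 and 9.345 CPM at P3, at 1.32, 1.56 and 3.43 CPM at P14 and at 0.482, 0.459 and 0.630 CPM at P21. The P0 and P21 libraries were far apart, and the log2 fold change was -3.79 ± 0.37 (edgeR, adjusted p = 3.44e-10). It was at 3.745, 5.11, 3.66 and 1.95 CPM in Kir at P0 and at 0.840, 0.359 and 0.820 CPM at P21, a log2 fold change of -2.41 ± 0.37 (adjusted p = 1.54e-06). Its closest relative among all receptors was only 65.0% identical. Its neighbor Olfr512 had a log2 fold change of -0.86 ± 0.50 in WT, which did not pass the test (adjusted p = 0.149).

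**Figure D3:**
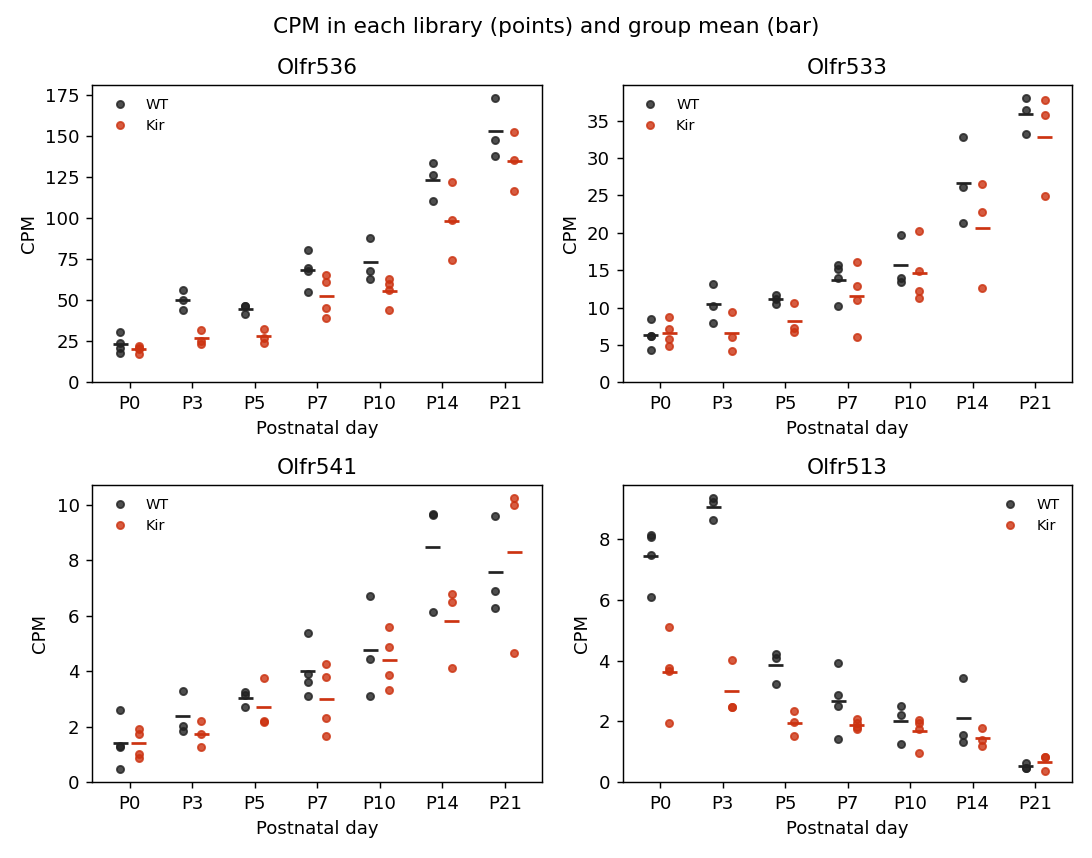
CPM in each library (points) and group mean (short bars) at 7 ages in WT (black) and Kir (red) for Olfr536, Olfr533, Olfr541 and Olfr513, each on its own axis from 0. The first 3 are higher at P21 than at P0 in both genotypes, while Olfr513 drops from 6.08 to 8.145 CPM in WT at P0 to 0.459 to 0.630 CPM at P21.

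Shorter spans of age were compared in WT for P0 to P3, P5 to P10, P3 to P14 and P14 to P21. Between P0 and P3 in WT, 3 members rose, Olfr536 by 1.10 ± 0.16, Olfr535 by 1.16 ± 0.32 and Olfr533 by 0.73 ± 0.27 on the log2 scale. These were 7.14% of the 42 tested members, near the 8.61% of all genes that rose, and 165 of the 1022 other receptors rose. The count of members was 1 without WT P3 replicate 1 or replicate 3, 8 without WT P0 replicate 4, and 1 when the P0 library labelled P3 was placed in P3. Between P5 and P10, Olfr524 (1.07 ± 0.28) and Olfr536 (0.70 ± 0.17) rose, where 0.607% of all genes and 21 of the 1022 other receptors did. No call was left there without any one of WT P5 replicates 1 or 2 or WT P10 replicates 1 or 2, or without the Kir libraries with low Kcnj2. Between P3 and P14, 17 of 42 members rose and Olfr513 fell, and 12 of the 17 were in the last block. Of all genes 12.9% rose, and of the 1022 other receptors 501 rose. From P14 to P21 only Olfr513 passed the test, with a log2 fold change of -2.0 ± 0.40 (adjusted p = 0.0438), where 0.0452% of all genes fell. The call was lost when any one of the 6 libraries was left out.

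In Kir 13 of the 14 members of the last block rose, all but Olfr523 (0.43 on the log2 scale, adjusted p = 0.153). Between P0 and P21, 28 members rose and 1 fell, with a median of 1.44, against 22.9% of all genes that rose and a median of 1.5 among other receptors. In the middle block 14 of 27 rose and 1 fell in Kir, with a median of 1.10, and its summed level (mean ± SD) went from 30.15 ± 8.88 CPM in the 4 libraries of P0 to 58.9 ± 8.85 CPM in the 3 of P21. Olfr536 rose by 2.73 ± 0.17 on the log2 scale in Kir, from 22.4, 20.3, 21.1 and 17.3 CPM at P0 to 152.4, 135.5 and 116.5 CPM at P21. Without the 5 Kir libraries with low Kcnj2, which leaves 1 Kir library at P21, the median change of the members was 0.83, over 45 tested. The change from P0 to P21 was not shown to differ between the genotypes for any member: the interaction test called 0 of 42 in edgeR and 0 in DESeq2, with 9 at an unadjusted p under 0.05 in edgeR, where 0.286% of all genes were called.

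Genes known to act in receptor choice and trafficking were read beside these values. Of 16 such genes, 9 rose and 4 fell from P0 to P21 in WT. Ric8b, an exchange factor for the olfactory G protein, rose by 1.97 ± 0.14 on the log2 scale, and Rtp1 and Rtp2, chaperones that bring receptors to the membrane, rose by 1.56 ± 0.17 and 1.88 ± 0.18. Lbr, a nuclear envelope protein, fell by 0.71 ± 0.09 and Kdm1a, a histone demethylase needed for the first step of receptor choice, by 0.36 ± 0.09. Of the 20 genes of odor transduction, 15 rose and 2 fell, and all 16 mature neuron markers rose, with a median of 1.99. These lists overlap, so their counts are not separate. Most of the mature markers are also transduction genes, and Rtp1, Rtp2, Ric8b and Adcy3 are also in the list of choice and trafficking. All 8 markers of sustentacular cells, the supporting cells of the epithelium, rose too, while 6 of 7 markers of globose basal cells, its neuronal progenitors, fell. Their part in the rise of the receptors was not tested.

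The receptors could also be set against each other, with the summed count of the other Olfr genes as the library size. On that scale a positive value means that a member took a larger share of all receptor RNA. From P0 to P21 in WT, 9 members gained and 18 lost share. In the last block 8 of 14 gained, led by Olfr535 (1.48 ± 0.28), Olfr536 (1.35 ± 0.18), Olfr524 (1.29 ± 0.29), Olfr532 (1.16 ± 0.25) and Olfr533 (1.15 ± 0.22), and only Olfr523 lost (-0.63 ± 0.21). In the middle block 1 of 27 gained, Olfr477 (1.51 ± 0.51), and 16 lost. The largest losses were those of Olfr513 (-5.19 ± 0.40), Olfr512 (-2.19 ± 0.45), Olfr497 (-1.75 ± 0.33), Olfr484 (-1.74 ± 0.36), Olfr494 (-1.73 ± 0.52), Olfr482 (-1.52 ± 0.45), Olfr481 (-1.5 ± 0.31) and Olfr509 (-1.48 ± 0.25), with Olfr521 of the first block at -1.61 ± 0.48. All of these are log2 fold changes with SE, called by edgeR at an adjusted p under 0.05. Olfr481 and Olfr482 each overlap another annotated gene on the same strand (Gm45375 and Gm44870), and the effect of this on their counts was not examined. Under this scaling the median of all genes lay at -1.44, and 2.61% of all genes were called higher and 79.6% lower, so the adjustment over all genes removed few calls. Of the 1022 other receptors, 206 gained and 265 lost. A fit of the receptors alone, adjusted over them, also called 9 members higher and 18 lower.

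As a plain share, the 52 members held 5.71% ± 0.24 of all receptor counts in WT at P0 (SD, n = 4), between 5.38% and 5.92%, and 7.05% ± 0.42 at P21 (n = 3), between 6.78% and 7.54%. In Kir the share was 5.71% ± 0.42 at P0 (n = 4) and 6.63% ± 0.40 at P21 (n = 3). Summed over the members, the last block went from 66.5 ± 14.9 CPM at P0 to 306.2 ± 17.2 CPM at P21 in WT, and the middle block from 45.9 ± 9.27 to 56.8 ± 0.45 CPM. Without Olfr536 the last block still went from 43.1 ± 10.8 to 153.4 ± 4.88 CPM. The WT P0 and P21 libraries of the last block did not overlap in either sum, whereas the P21 libraries of the middle block, at 56.4 to 57.2 CPM, lay just above the P0 range of 35.6 to 55.9 CPM. The WT P14 libraries of the middle block were above both, at 64.0 to 97.2 CPM. From P14 to P21, 23 of its 27 tested members had negative log2 values (median -0.51), as had 791 of the 1022 other receptors (median -0.27). Only Olfr513 among all of these passed the test, as given above.

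The second question was how the receptors differed in Kir mice. Averaged over the 7 ages, 18 of the 42 tested members were lower in Kir than in WT and none was higher, with a median log2 difference of -0.35. Among all genes 7.43% were lower, and of the other receptors 537 of 1022 were lower and none was higher, with a median of -0.44. These are 42.9% of the tested members and 52.5% of the other receptors, and the difference between the shares was not tested. At single ages, the median of the members ran from -0.85 at P3 to 0.10 at P10, and was -0.08 at P21. Among the other receptors it was -0.78, -0.13 and -0.20 at these ages. Of the mature neuron markers 15 of 16 were lower in Kir, with a median of -0.40 (Omp -0.54 ± 0.07), and all 7 macrophage markers were higher, with a median of 0.53. None of the markers of sustentacular, globose basal, horizontal basal or respiratory ciliated cells passed the test. In WT and Kir the summed mature markers ran from 2646 to 3549 and from 1618 to 2875 CPM at P0 and from 13000 to 14770 and from 11200 to 11910 CPM at P21. Their part in the receptor differences was not tested.

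The 2 largest differences were those of adjacent genes at one end of the last block. Olfr522 (chr7:140159999-140164764, minus strand) and Olfr523 (chr7:140173217-140178758, plus strand) are separated by 8452 bases and start in opposite directions, on the sides that face each other. Averaged over ages, Olfr522 was lower by a log2 value of -1.12 ± 0.10 (adjusted p = 5.20e-11) and Olfr523 by -1.12 ± 0.09 (adjusted p = 3.60e-11). Both calls held in each of the 57 alternative fits, with values between -1.16 and -0.67 for Olfr522 and between -1.16 and -0.87 for Olfr523.

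Olfr523 was at 10.7, 17.4, 11.6 and 13.7 CPM in WT at P0 and at 7.31, 8.55, 7.09 and 2.92 CPM in Kir. At P21 it was at 19.2, 22.9 and 24.2 CPM in WT and at 10.7, 8.88 and 6.65 CPM in Kir, the first 2 of these being libraries with low Kcnj2. At each of the 7 ages every Kir library was below every WT library, and the mean in Kir was 38.3% to 61% of that in WT. Olfr522 was at 2.855, 4.403, 4.804 and 4.78 CPM in WT at P0 and at 1.55, 2.70, 2.27 and 1.77 CPM in Kir, and at P21 at 8.58, 13.2 and 8.465 against 3.36, 3.86 and 2.82 CPM. Its groups did not overlap at 6 ages; at P10 the highest Kir library, at 5.96 CPM, was above the lowest WT library, at 5.73 CPM. The mean in Kir was 32.2% to 64.5% of that in WT.

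The next members of the block differed less from WT. Olfr524, separated from Olfr523 by 19740 bases, was lower by -0.60 ± 0.11, and Olfr525, a further 114893 bases on, was at 0.09 ± 0.10 (adjusted p = 0.656). Farther along, Olfr527 was lower by -0.77 ± 0.14, Olfr535 by -0.57 ± 0.12, Olfr532 by -0.56 ± 0.11 and Olfr536 by -0.44 ± 0.06. Olfr539 was called at -0.28 ± 0.10 (adjusted p = 0.0486), and this call was lost in 46 of 57 alternative fits. Olfr533 (-0.27 ± 0.10, adjusted p = 0.0788), Olfr531 (-0.23 ± 0.10) and Olfr541 (-0.23 ± 0.14) did not pass the test.

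**Figure D4:**
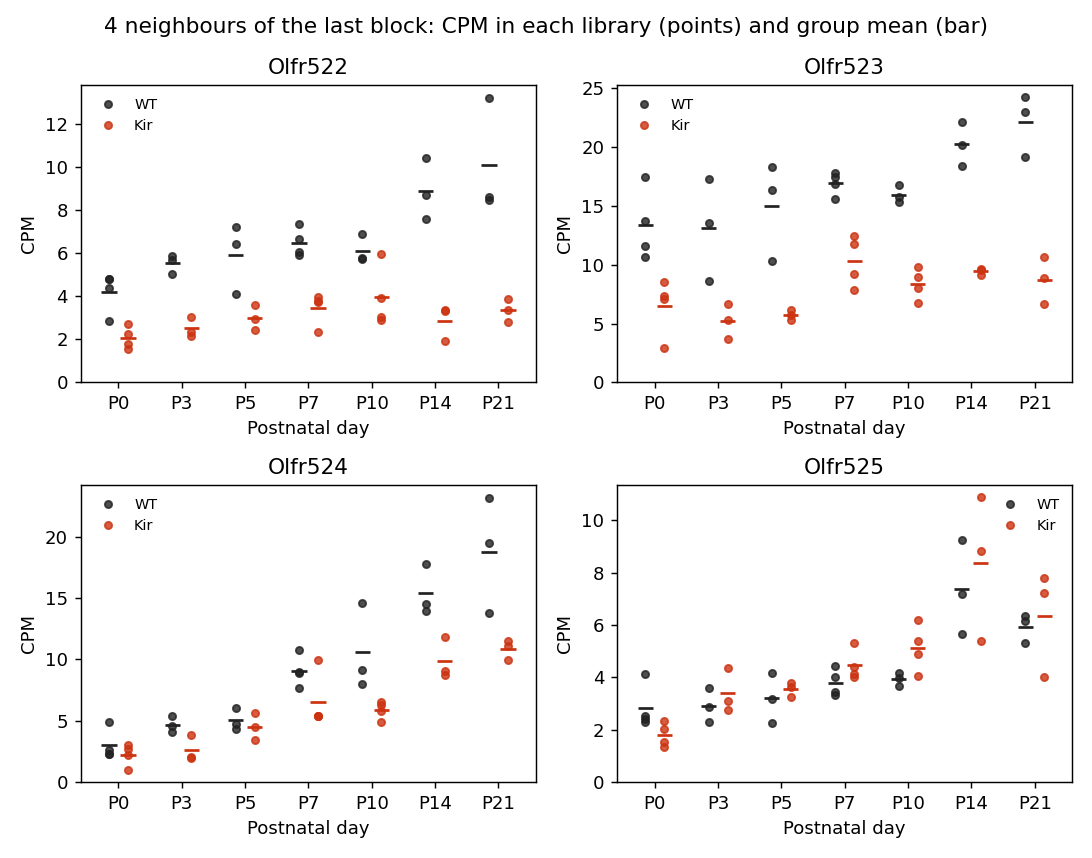
CPM in each library (points) and group mean (short bars) by age in WT (black) and Kir (red) for the first 4 members of the last block, each on its own axis from 0. Kir lies below WT at every age for Olfr523 and, apart from 1 library at P10, for Olfr522, while the genotypes overlap for Olfr525.

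Averaged over ages, 10 of 27 members of the middle block were lower in Kir. Age by age, the block's median was negative at P0, P3, P5, P7 and P14, from -0.91 (P3) to -0.38 (P7). It was 0.26 at P10 and 0.11 at P21, where 21 and 15 of the 27 had positive values. The largest differences there were at its start, in Olfr477 (-0.88 ± 0.22), Olfr479 (-0.87 ± 0.13), Olfr476 (-0.81 ± 0.18) and Olfr478 (-0.65 ± 0.15, whose call was lost in 1 alternative fit), and further in at Olfr518 (-0.67 ± 0.12) and Olfr513 (-0.65 ± 0.13). Olfr476 and Olfr477 are 95.2% identical in their coding sequence and had total counts of 454 and 554 over all libraries, so both values rest on few reads. The mean of Olfr513 in Kir was 33% of that in WT at P3 and 129% at P21, and its libraries overlapped between genotypes from P7 on.

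Relative to the other receptors, 7 members had a smaller share in Kir and 9 a larger one. Olfr522 (-0.71 ± 0.10) and Olfr523 (-0.70 ± 0.08) again had the largest differences, followed on the lower side by Olfr477 (-0.49 ± 0.20), Olfr479 (-0.47 ± 0.12), Olfr476 (-0.42 ± 0.17) and Olfr527 (-0.36 ± 0.13), and the calls of Olfr477 and Olfr476 were each lost in at least 1 alternative fit. The larger shares were led by Olfr512 (0.51 ± 0.16), Olfr525 (0.51 ± 0.07), Olfr530 (0.48 ± 0.13), Olfr502 (0.40 ± 0.12) and Olfr497 (0.40 ± 0.12, whose call was lost in 1 alternative fit). Olfr536 was at -0.01 ± 0.07. Of the other receptors 177 had a larger and 251 a smaller share in Kir; among all genes, whose median this scaling moves to 0.44, 80.2% were called higher and 1.51% lower. A fit of the receptors alone called 6 members higher and 7 lower. None of the 5 named members was higher in Kir when library sizes came from all genes.

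**Figure D5:**
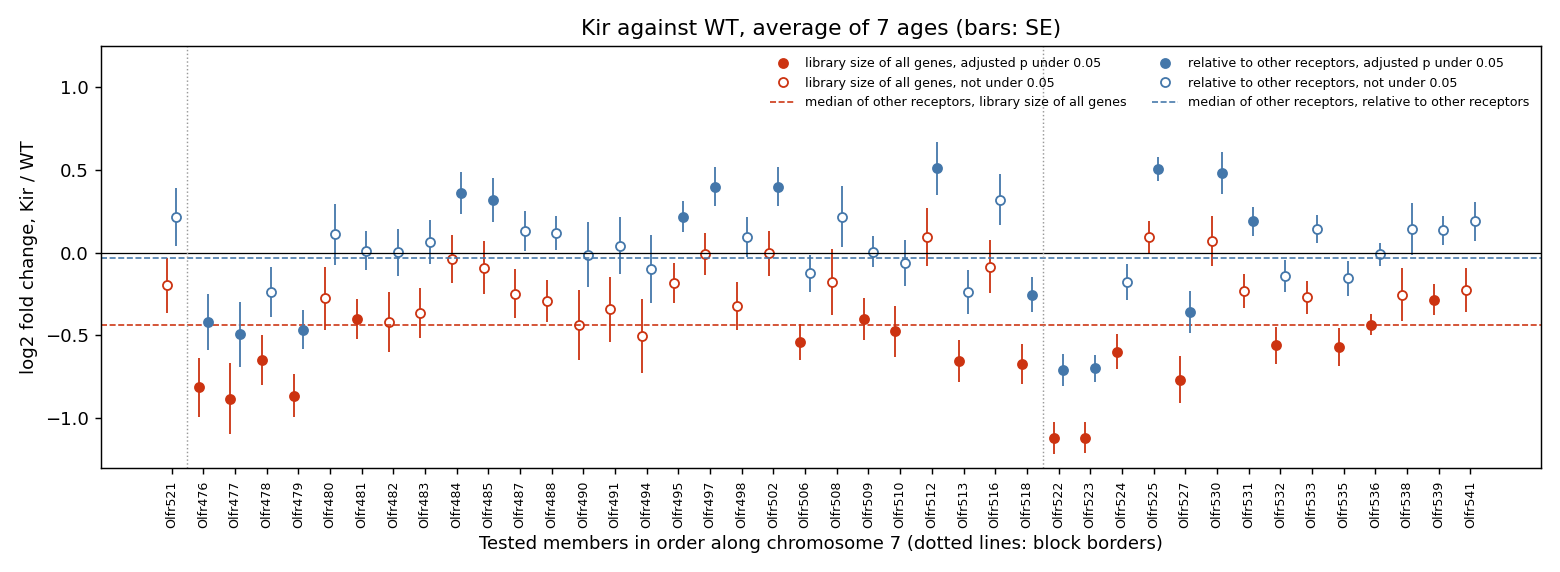
log2 fold change of Kir against WT averaged over 7 ages (points, with SE) for the 42 tested members in chromosome order, with library sizes from all genes (red) and from the other receptors (blue); filled points had an adjusted p under 0.05 and dashed lines mark the medians of other receptors, at -0.44 and -0.03. Olfr522 and Olfr523 are the lowest on both scales, at -1.12 and at -0.71 and -0.70.

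Values of near copies in Kir were set side by side. Olfr525 and Olfr532 are each other's closest receptor, with 91.5% identity over 927 coding bases, and their log2 differences were 0.09 ± 0.10 and -0.56 ± 0.11. Olfr527 and Olfr531, 93.4% identical, were at -0.77 ± 0.14 and -0.23 ± 0.10. The difference within a pair was not tested. The last 121 bases of the intron before the coding exon of Olfr525 (chr7:140322451-140322571, plus strand) and Olfr532 (chr7:140419888-140420008, minus strand) are printed because they show how alike the pair also is outside the coding sequence, with capitals at the 4 bases that differ (96.7% identity; RefSeq table, GRCm38.p6).
Olfr525: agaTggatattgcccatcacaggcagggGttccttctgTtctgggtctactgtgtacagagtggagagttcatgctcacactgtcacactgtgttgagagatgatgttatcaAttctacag
Olfr532: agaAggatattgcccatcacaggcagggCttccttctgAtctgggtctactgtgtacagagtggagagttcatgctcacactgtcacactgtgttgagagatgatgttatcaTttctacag

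At single ages, few members passed the test, and Olfr523 was among them at 6 of 7 ages. Of the 1022 other receptors, 17 were lower in Kir at P0, 53 at P3, 5 at P5, 3 at P7, 27 at P10, 41 at P14 and 2 at P21. At P0, 3 members were lower in Kir (Olfr523, Olfr522 and Olfr513), where 0.708% of all genes were lower. This count was 1 with a replicate block and 0 in limma on log2(TPM + 1). At P3, 4 were lower, the same 3 and Olfr536 (-0.89 ± 0.18, adjusted p = 0.00993), where 0.527% of all genes were. Olfr513 differed by -1.58 ± 0.32 at P3, when it was at 2.49, 2.47 and 4.02 CPM in Kir. Olfr523 alone was lower at P5 (-1.39 ± 0.26), where 0.0853% of all genes were, and at P10 (-0.92 ± 0.23), where 0.296% were. At P14 the lower members were Olfr479 (-1.65 ± 0.37), Olfr522 (-1.61 ± 0.27) and Olfr523 (-1.10 ± 0.26), where 0.406% of all genes were lower, and at P21 Olfr522 (-1.59 ± 0.27) and Olfr523 (-1.34 ± 0.26), where 0.0953% were. At P7, edgeR called 0 members and DESeq2 called 1, with 7 at an unadjusted p under 0.05 in edgeR, and 0.0251% of all genes were lower.

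These counts at single ages rest on few libraries. Leaving out 1 library left no call at P0 (WT replicate 1 or 2, or Kir replicate 4), at P3 (WT replicate 1 or Kir replicate 2), at P5 (WT replicate 1 or 3, or any of the 3 Kir libraries) and at P10 (WT replicate 1 or 2, or Kir replicate 1 or 2). It left 1 call at P0 without Kir replicate 1 or 3, at P14 without WT replicate 1 or 3 or Kir replicate 2 or 3, and at P21 without Kir replicate 3. It left 2 calls at P3 without WT replicate 3, and gave 2 at P10 without WT replicate 3 or Kir replicate 3. Without both Kir P10 libraries that had most unmapped reads there was no call at P10, and over the average of ages the number of members called lower was 14.

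Of the 16 genes of receptor choice and trafficking, 4 were lower in Kir and none was higher, with a median of -0.09, where 7.43% of all genes were lower. The 4 were Adcy3 (-0.45 ± 0.07), Rtp1 (-0.27 ± 0.07), Rtp2 (-0.31 ± 0.07) and Ric8b (-0.31 ± 0.06), and all 4 are also among the mature neuron markers. Lhx2 (-0.05 ± 0.08), Ldb1 (0.05 ± 0.07) and Ebf1 (-0.07 ± 0.05), which encode the transcription factors and the cofactor that bind receptor enhancers, did not pass the test. Of 14 genes linked to neuronal activity, 11 were lower, among them S100a5, a calcium-binding protein (-1.20 ± 0.10), and Kirrel2, an axonal adhesion protein (-1.09 ± 0.13). Hist2h2be was also called, at -0.20 ± 0.06, while Kirrel3 (0.02 ± 0.06), Efna5 (0.05 ± 0.06) and Nrp1 (-0.03 ± 0.05) did not pass the test. The median over the 14 genes was -0.64. The list was not sorted by whether activity raises or lowers a gene.

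The courses most like those of Olfr536 and Olfr523 were sought among 1336 other Olfr genes, by Pearson's r of log2(TPM + 1) over the 14 group means. Closest to Olfr536 were Olfr1262 (r = 0.99), Olfr1242 (0.98) and Olfr1193 (0.98), none of them a member. Closest to Olfr523 were Olfr47 (r = 0.97), its neighbor Olfr522 (0.96) and Olfr215 (0.95). The group means share libraries, depth and the tie of prefix to age, so the values describe the courses and were not tested.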

How the data were processed

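Counts and TPM of 47 mouse olfactory epithelium libraries were used. The submitters' processing notes name the build mm10 and the tools STAR 2.6.1c, bcl2fastq 2.18 and RSEM. For the counts, a strand setting was not given in the sources used here. Both tables were deposited by the authors. The deposited count table held whole-number counts per gene and 4 lines that name no gene (23.4% to 45.4% of reads), which were left out. The deposited TPM table gave symbols and length-corrected levels. Reads that map to several places were in a line of their own in the counts.

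Counts were fitted with edgeR 4.0.16 (TMM, filterByExpr by group, quasi-likelihood test) on all 47 libraries, with 14 group means and the title prefix as terms, and p-values were adjusted by Benjamini-Hochberg over 19927 genes. CPM values use TMM-scaled library sizes. For comparisons relative to other receptors, the summed counts of the 1355 other Olfr genes were the library size. Counting error and replicate number (3 or 4) limit precision. On simulated data with 18919 genes in the step for WT P21 versus P0, 86 of 100 genes with a 2-fold change were recovered, with 9 false calls. The simulation gave all genes the same spread and held no prefix effect, and its changed genes were drawn from all levels. It checks the working of the fit and does not give the power for these receptors. Libraries of a group were not copies: in 57 pairs the chi-square per gene was at least 7.24. Alternatives were DESeq2 1.42.0, limma 3.58.1 on log2(TPM + 1) with a mean of at least 0.1 TPM, other filters, no prefix term, the other placing of WT P0 replicate 3, a replicate block and leaving out each library; upper-quartile factors, leaving out the doubtful Kir libraries and a fit of receptors alone were chosen after seeing the data.

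The members and gene lists were chosen with earlier results of these data known. Named were Olfr536, Olfr523, the 6 members of highest mean TPM, for the main comparisons the 10 called members with the largest change and up to 6 called in the opposite direction, and the 2 closest pairs, by coding sequence (GENCODE, blastn 2.17.0) since no protein table was used here. Other members are named where a count was small or a pair or neighbor was described, chosen after their values were seen.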

Additional observations from a re-analysis of the deposited data

Results flagged for a closer look

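In groups of 4 libraries, 45 sets of values were examined (8 receptors and the members' share of receptor counts), and in 4 of them 1 library lay far from the other 3; chance flags about 1 set in 20. In Kir at P7, Olfr531 was at 10.32 CPM in replicate 3 and at 6.03 to 6.54 CPM in the others. Olfr522 was at 2.35 CPM in Kir P7 replicate 1, one of the libraries with low Kcnj2, and at 3.72 to 3.95 CPM in the others. In Kir P7 replicate 2 the members held 5.49% of receptor counts, against 6.85% to 6.98% in the others. Olfr539 was at 1.30 CPM in Kir P0 replicate 2 and at 0.975 to 1.02 CPM in the others.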

How the results depend on the processing

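All 52 results for named members kept their direction in 1896 alternative fits, and 6 of them lost their call in at least 1 fit. The number of members called was within 1.5 times the reported one in every alternative for WT P21 versus P0 (23; 21 to 24 with single libraries left out), WT P14 versus P3 (18; 13 to 18), Kir versus WT over ages (18; 14 to 19), the interaction (0; 0 to 0) and the WT change relative to other receptors (27; 23 to 29). Kir P21 versus P0 (29; 22 to 32) fell to 15 without the Kir libraries with low Kcnj2, which leaves fewer samples. Kir versus WT relative to other receptors (16; 14 to 19) fell to 8 with no filter on low counts. With single libraries left out, counts ran from 1 to 8 for WT P3 versus P0, 0 to 0 for WT P21 versus P14, 0 to 2 for WT P10 versus P5, and in Kir versus WT 0 to 3 at P0, 0 to 4 at P3, 0 to 1 at P5, 0 to 2 at P10, 1 to 2 at P14 and 1 to 2 at P21. Under limma on log2(TPM + 1), the count was 1 for WT P3 versus P0, 0 for WT P21 versus P14, 0 for WT P10 versus P5, 0 for Kir versus WT at P0, 1 at P3, 0 at P5 and 0 at P10. With WT P0 replicate 3 placed in P3, it was 1 for WT P3 versus P0, 0 for WT P21 versus P14, 0 for WT P10 versus P5 and 2 for Kir versus WT at P3. With DESeq2 it was 5 for WT P10 versus P5, and in Kir versus WT 4 at P5, 1 at P7 and 2 at P10. WT P21 versus P14 also gave 0 with no filter, with 1 CPM in at least 10 libraries, with upper-quartile factors and without either set of doubtful Kir libraries. WT P10 versus P5 gave 0 without the Kir libraries with low Kcnj2, and Kir versus WT at P10 gave 0 without the Kir P10 libraries with most unmapped reads. The cause of these changes was not tested unless stated.

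Over 13 pairs of libraries with the same replicate number in both genotypes, the correlation of deviations ran from -0.192 to 0.304, and 4 of 13 were above 0.1. At P3 all 3 pairs were above 0.1 (0.172, 0.21 and 0.286) and each correlated best with its own number, a hint of pairing at that age from the data and not from the labels; with the block, 4 members were called at P3, as without it. The remaining pair above 0.1 was replicate 2 at P0 (0.304), which also correlated best with its own number. The other pairs at P0 and all pairs at P14 and P21 were at 0.095 or lower, and none of them correlated best with its own number. With a replicate block, 17 members were lower in Kir over ages, 22 were called for WT P21 versus P0, 1 was called for Kir versus WT at P0, and the call of Olfr523 for WT P21 versus P0 was lost (adjusted p = 0.0541). Members with few counts limit what could be tested, and 10 were too low for any test.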
